A study of Mus musculus with 15 samples.

Results

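The second postnatal week of the mouse cerebellum was examined by setting RNA from Purkinje cell ribosomes at postnatal day 15 (P15, 3 arrays) against the same preparation at day 7 (P7, 3 arrays), across all 22092 probe sets. These are 6 of the 15 arrays of the study, which also holds 3 arrays each at P0, P21 and P56. All mice carried Tg(Pcp2-L10a-Egfp), in which a green fluorescent tag on the ribosomal protein L10a is driven by the Pcp2 promoter, active in Purkinje cells. No treatment, sex or further allele is given, and the groups differ in the labels only by age. Cerebella were pooled for each preparation, so an array stands for several animals, and how many went into a pool is not given. In this method, translating ribosome affinity purification, tagged ribosomes are captured from a homogenate with antibodies to the tag and the RNA they hold is read. Unpurified cerebellar RNA and mock captures were not used here, so a signal below is a level in the capture and not an enrichment over the tissue. Values are log2 signals, in which a difference of 1 is a doubling. Signals of different probe sets are not set against each other.

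Purkinje cells are the output neurons of the cerebellar cortex. In the second postnatal week of rodents they extend their dendritic tree, lose surplus climbing fibres and gain parallel fibre synapses from granule cells. At the same time granule cell progenitors in the external granular layer finish dividing and migrate inward past the Purkinje cells, Bergmann glia mature, and oligodendrocytes begin to wrap axons in myelin. RNA from those neighbours can reach a ribosome capture of Purkinje cells as background, so lists of their markers were read beside the neuronal lists.

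Of all probe sets, 2296 (10.4%) were higher and 3009 (13.6%) lower at P15, 24% in either direction (limma, all 15 arrays in 1 fit with age as the only factor, two-sided, Benjamini-Hochberg adjusted p under 0.05, referred to below as called). Large changes went mostly down: 162 probe sets (0.733%) fell and 16 (0.0724%) rose by at least 1 on the log2 scale. The split of the calls, 43.3% higher and 56.7% lower, depended on the centring of the arrays. It was 48.8% and 51.2% after quantile normalization and 62.2% and 37.8% with each array's median set to 0, which shifted the median change of all probe sets from 0.0078 to 0.076. The deposited medians were 7.85 to 7.87 at P7 and 7.77 to 7.81 at P15. Arrays correlated at 0.999 within P7, 0.998 within P15 and 0.991 to 0.994 between the ages over all probe sets, which are not independent replicates. With 1 probe set per gene, 19500 genes were read, of which 10.5% were called higher and 13.8% lower, with a median change of 0.0066. The 10051 genes above the median signal at P7 or P15 are the closer background for lists of well expressed genes: 17.4% of them were called higher and 21.9% lower, with a median of -0.0099. The 3 arrays of P15 did not overlap the 3 of P7 in 45.4% of all genes, so separation of the arrays was by itself common. With 3 arrays an age, an exact permutation test could reach no p below 0.1, and the fit across all probe sets carries the calls.

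**Figure D1:**
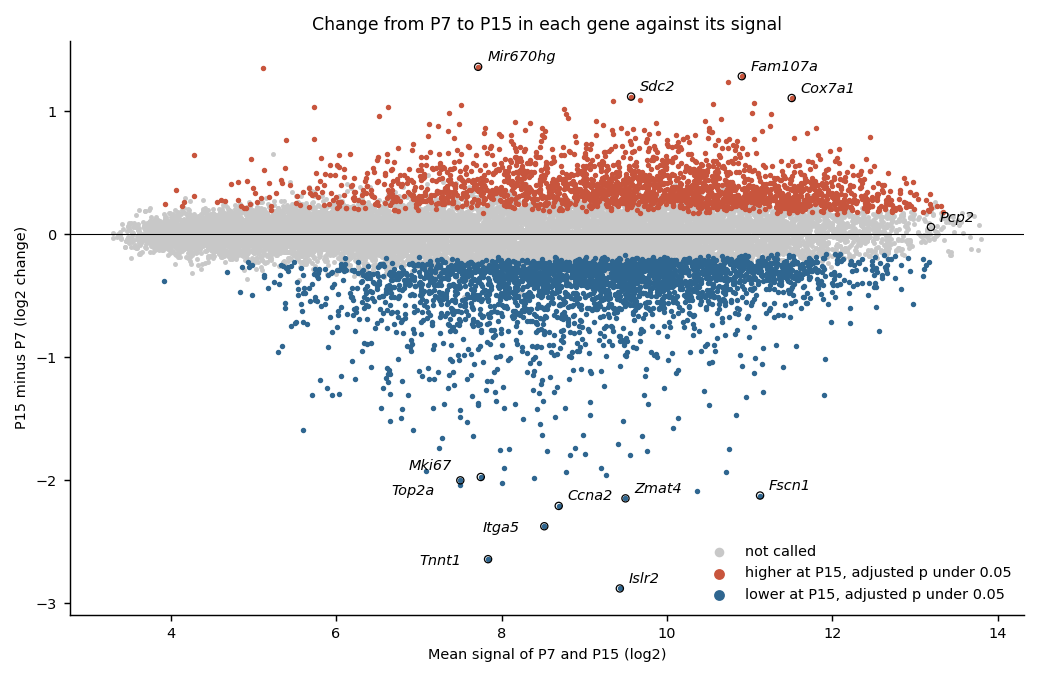
Change from P7 to P15 (log2, vertical axis) of 19500 genes against the mean signal of both ages (log2, horizontal axis), with genes called higher in red, lower in blue and not called in grey. The largest falls reach -2.88 (Islr2) and the largest rise is 1.36 (Mir670hg), and Pcp2 lies near 0 at the right.

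The levels of Purkinje cell markers moved little. Of 24 measured markers, all above the median signal, 2 were higher and 3 lower at P15, with a median change of 0.06 and a range of -0.39 to 0.28, and over the alternative settings 1 to 6 were higher and 2 to 3 lower. Their mean signal was 12.45 to 12.46 on the P7 arrays, 12.48 to 12.53 on the P15 arrays and 9.41 at P0, so the large difference lay between P0 and P7. Pcp2, whose promoter drives the tag, read 13.18, 13.15 and 13.16 at P7 and 13.23, 13.24 and 13.20 at P15. Its change of 0.06 ± 0.06 (SE) did not pass the test (adjusted p = 0.58). Rpl10a, the tagged protein's own gene, read 13.057, 12.963 and 12.997 at P7 and 12.83, 12.81 and 12.80 at P15, a fall of -0.19 ± 0.06 (adjusted p = 0.021) that was lost with medians set to 0 (adjusted p = 0.15) and without P7 replicate 1 (0.10), P7 replicate 3 (0.058), P15 replicate 2 (0.056) or P15 replicate 3 (0.055). Many of these markers lie near the top of the range, where the brightest probe set of an array read 13.8 to 13.9, and whether signals there are compressed was not tested.

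Among the markers that passed, Ppp1r17, a phosphatase inhibitor of Purkinje cells, rose from 13.003, 12.992 and 12.976 to 13.31, 13.25 and 13.25 (0.28 ± 0.07, adjusted p = 0.0087). Foxp2, a forkhead transcription factor of Purkinje cells, fell from 11.05, 11.01 and 11.00 to 10.62, 10.53 and 10.74 (-0.39 ± 0.09, adjusted p = 0.0029). Gad1, which makes the transmitter GABA, fell from 12.69, 12.69 and 12.70 to 12.46, 12.46 and 12.45 (-0.23 ± 0.06, adjusted p = 0.0054). The arrays of the 2 ages did not overlap in any of the 3 genes. The calls for Gng13 (0.20, adjusted p = 0.039) and Skor2 (-0.22, adjusted p = 0.049) lay near the threshold and were lost without several single arrays and with quantile normalization (adjusted p = 0.11 and 0.083), and that for Skor2 also with medians set to 0 (0.18). The adjusted p of Gng13 was 0.055, 0.12 and 0.13 without P7 replicate 1, 2 or 3 and 0.13 and 0.14 without P15 replicate 1 or 2. That of Skor2 was 0.10, 0.10 and 0.14 without P7 replicate 1, 2 or 3 and 0.16 without P15 replicate 1 or 2. The calcium buffers Calb1 (0.10 ± 0.08, adjusted p = 0.48) and Pvalb (0.17 ± 0.07, adjusted p = 0.12), the carbonic anhydrase-like Car8 (0.10 ± 0.08, adjusted p = 0.43) and the glutamate transporter Slc1a6 (-0.04 ± 0.08, adjusted p = 0.82) did not pass.

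Changes of Purkinje cell transcription factors spanned a wider range than those of the markers, from -1.64 to 0.98. Of 23 measured, all above the median signal, 5 were higher and 8 lower, with a median of -0.05. Of all genes above that signal 17.4% were called higher and 21.9% lower, so the count of higher genes lay near that background. The count of lower genes was 5 with medians set to 0 and 5 without any 1 of the P7 arrays. Esrrb, an orphan nuclear receptor, fell from 10.63, 10.47 and 10.45 to 9.05, 8.90 and 8.67, a 3.13-fold drop (-1.64 ± 0.09, adjusted p = 2.2e-09). Ebf3, of the early B cell factor family, fell from 11.59, 11.52 and 11.58 to 10.58, 10.54 and 10.56 (-1.01 ± 0.08, adjusted p = 9.6e-08). At P21 the mean of Ebf3 was 10.55, as at P15, while the Esrrb arrays read 9.08 to 9.16, above all those of P15 and below all those of P7. Ldb2, a LIM-domain binding cofactor, fell by 0.67 at P15 and read 8.78, 8.72 and 8.80 at P21, above its P15 arrays of 8.07, 7.76 and 7.96. Etv1, an ETS factor that also marks maturing granule cells, rose from 10.46, 10.58 and 10.57 to 11.46, 11.44 and 11.67 (0.98 ± 0.09, adjusted p = 5.7e-07). Rora, a nuclear receptor required for Purkinje cell maturation, changed by -0.05 and was not called.

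Of the lists shown in the plot of list members, the cell cycle genes had the largest median change. Of 58 measured, 52 were called lower and 1 (Ccne2, 0.46; not called without P15 replicate 3) higher, against 13.8% and 10.5% of all genes, and the median was -0.91. Their mean signal was 7.73 to 7.83 on the P7 arrays and 6.81 to 6.86 on the P15 arrays, beside 7.78 at P0. Ccna2, cyclin A, which drives S phase and entry into mitosis, read 9.91, 9.78 and 9.70 at P7 and 7.68, 7.40 and 7.68 at P15, a 4.62-fold fall (-2.21 ± 0.14, adjusted p = 7.3e-09). Plk1, a mitotic kinase, went from 9.23, 8.89 and 8.92 to 6.92, 7.22 and 6.84 (-2.02 ± 0.14, adjusted p = 3.7e-08). Every P15 array lay below every P7 array in both genes. Top2a, the topoisomerase that untangles replicated chromosomes, went from 8.66, 8.39 and 8.46 to 6.64, 6.45 and 6.41 (-2.0 ± 0.10, adjusted p = 7.8e-10). Mki67, the proliferation antigen Ki-67, went from 8.87, 8.65 and 8.69 to 6.89, 6.54 and 6.85 (-1.97 ± 0.09, adjusted p = 4.4e-10). At P21 these went on down, to means of 6.40 for Ccna2 and 5.80 for Mki67, the latter below the lower quartile of all signals (5.91), where a signal is not shown to be above background.

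Genes of both replication and mitosis were among those that fell. Among replication factors, Mcm6 (-1.38) and Mcm7 (-1.22), parts of the replicative helicase, and Rrm2 (-1.53), a subunit of ribonucleotide reductase, were called lower. Among mitotic genes, Bub1 (-1.60) of the spindle checkpoint, Aurkb (-1.48) of the chromosomal passenger complex and Tpx2 (-1.41) of the spindle were called lower. Pcna (-0.10), Cenpk (-0.09), Ndc80 (-0.23), Cdc20 (0.08) and Anln (0.20) were not called, the last being also a gene of myelinating cells. Replication-dependent histone genes were measured in 20 of 51 cases, with 8 lower and 3 higher. Over the alternatives 6 to 10 were lower and 2 to 4 higher. The median signal was exceeded by 15 of the 20, and of all such genes 21.9% were called lower and 17.4% higher. The linker histones H1f5 (-1.80 ± 0.11, adjusted p = 5.6e-09) and H1f1 (-1.04 ± 0.11, adjusted p = 2.6e-06) fell, and so did the core histones H2ac4 (-1.59), which at P15 lay below the lower quartile, and H2ac15 (-1.13). H2bc4 (0.83) and H1f2 (0.65) rose. Histone genes of a class share long stretches of sequence, and a probe can read several, so the single values are uncertain.

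Genes of mitosis and replication are often controlled as a group through short promoter elements: a CCAAT box, bound by NF-Y, and the cell cycle homology region, bound by the MuvB core that forms repressor and activator complexes over the cycle. Since 52 list members fell together, their RefSeq promoters (GRCm38.p6, 250 bases before to 50 after the start, 300 in all) were searched on both strands for the letters CCAAT of the box, for TTTGAA of the homology region and for TTTCCCGC of an E2F site. Promoters were in the table for 43 of the 52 genes, 47 promoters in all. CCAAT was in 36 of them (76.6%), against 37.4% of all 32851 promoters of the table, and TTTGAA was in 26 (55.3%), against 17.9%. Both stood in 23 (48.9%) against 6.95%, more than 1 CCAAT in 23 (48.9%) against 11.7%, and TTTCCCGC in 3 (6.38%) against 1.07%. Letters of different motifs overlapped in 1 of the 47. Of 18810 promoters of genes measured here, 37.3% held CCAAT, 14.8% TTTGAA and 1.53% TTTCCCGC. List members that did not fall were not counted apart, so the shares cannot be tied to the fall. These are counts of letters and not of bound sites. The promoters of Plk1 (chr7:122159185-122159484, plus strand), Top2a (chr11:99024140-99024439, minus strand) and Mki67 (chr7:135716330-135716629, minus strand), members among the 12 largest falls of all genes, are shown 5′ to 3′ with each match in capitals, on the opposite strand written as ATTGG for the box and as TTCAAA for the homology region.
Plk1: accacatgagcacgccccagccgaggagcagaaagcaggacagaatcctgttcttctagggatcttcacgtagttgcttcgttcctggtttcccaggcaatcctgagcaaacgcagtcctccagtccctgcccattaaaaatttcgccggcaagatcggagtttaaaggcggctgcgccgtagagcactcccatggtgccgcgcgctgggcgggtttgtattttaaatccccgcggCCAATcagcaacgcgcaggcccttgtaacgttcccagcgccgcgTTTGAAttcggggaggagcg
Top2a: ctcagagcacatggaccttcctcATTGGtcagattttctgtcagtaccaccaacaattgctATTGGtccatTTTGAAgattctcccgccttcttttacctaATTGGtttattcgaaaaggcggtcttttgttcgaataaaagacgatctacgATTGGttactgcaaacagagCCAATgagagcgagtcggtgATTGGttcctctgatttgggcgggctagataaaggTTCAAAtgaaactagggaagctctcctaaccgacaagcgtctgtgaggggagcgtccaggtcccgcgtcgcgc
Mki67: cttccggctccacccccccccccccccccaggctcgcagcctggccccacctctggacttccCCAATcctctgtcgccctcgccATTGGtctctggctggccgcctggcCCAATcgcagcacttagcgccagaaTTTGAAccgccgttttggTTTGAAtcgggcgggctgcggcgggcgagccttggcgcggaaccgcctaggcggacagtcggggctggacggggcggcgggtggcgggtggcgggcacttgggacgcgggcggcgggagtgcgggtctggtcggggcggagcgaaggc
Plk1 has 1 CCAAT and 1 TTTGAA, Top2a has 6 CCAAT and 2 TTTGAA counting both strands, and Mki67 has 3 and 2. None of the 3 holds TTTCCCGC, and no motifs overlap in them.

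Markers of granule cell progenitors fell with the cell cycle. Of 19 measured, 11 were lower and 1 (Ptch1, 0.29, not called without P7 replicate 1 or P15 replicate 3) higher, with a median of -0.39. The median signal was exceeded by 16 of them, and of all such genes 21.9% were called lower and 17.4% higher. Ccnd2, cyclin D2, read 10.72, 10.58 and 10.64 at P7 and 8.93, 8.81 and 8.91 at P15 (-1.76 ± 0.07, adjusted p = 9.4e-11). Mycn, the growth-promoting factor induced by sonic hedgehog in these progenitors, read 10.30, 10.29 and 10.21, then 8.52, 8.60 and 8.57 (-1.70 ± 0.08, adjusted p = 2.1e-10). Atoh1, the factor that defines the progenitors, read 8.22, 8.04 and 8.08, then 6.30, 6.53 and 6.54 (-1.66 ± 0.15, adjusted p = 6.5e-07). The falls of the 3 genes lay between 3.15-fold and 3.39-fold, with no overlap between ages. Nhlh1, a helix-loop-helix factor of newly postmitotic granule neurons, read 9.46, 9.28 and 9.16 at P7 and 7.64, 7.60 and 7.77 at P15 (-1.63 ± 0.12, adjusted p = 3.7e-08). Its mean was 7.68 at P0 and 6.07 at P21, so its level at P15 was near that at P0 and the decline went on. Gli2 (-1.41) was lower, while Gli1 (-0.13), Zic1 (0.10), Zic2 (0.12) and Pax6 (-0.10) were not called. As background, Purkinje cells are postmitotic at birth, and granule cell progenitors are the most abundant dividing cells of the postnatal cerebellar cortex. In a bulk capture, fewer cells of a type and less RNA per cell cannot be told apart, and the part of other cells' RNA in these falls was not tested.

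**Figure D2:**
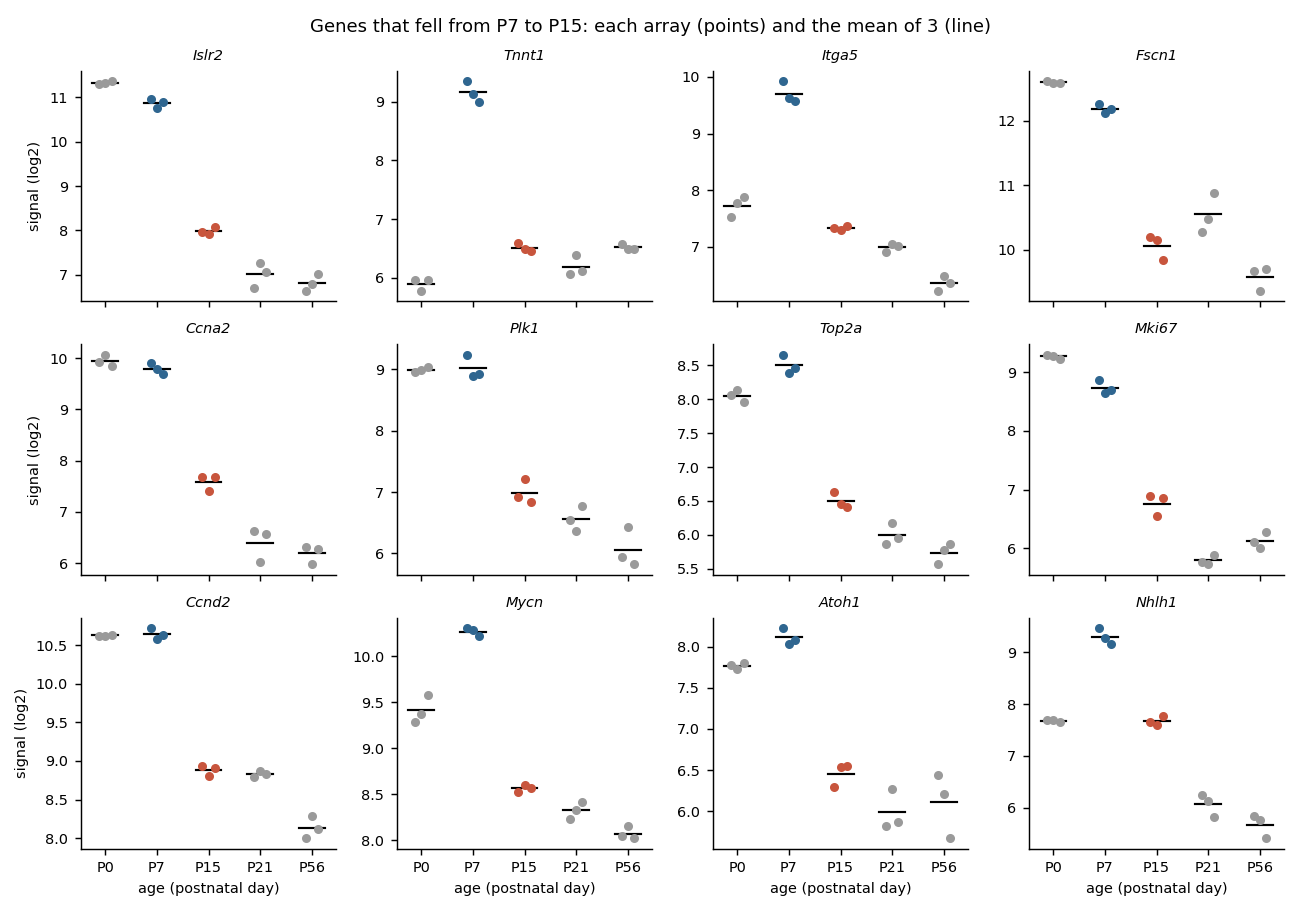
Log2 signal (vertical axes, which differ in range and do not start at 0) of 12 genes that fell from P7 (blue) to P15 (red), with P0, P21 and P56 in grey, against age in postnatal days in equal steps. Points are arrays and lines are means of 3. Tnnt1, Itga5, Mycn and Nhlh1 had their highest mean at P7, and Ccna2 dropped from 9.70 or more on every P7 array to 7.68 or less at P15.

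The largest single falls lay outside the cell cycle and included genes of axons and the cytoskeleton. Islr2, a leucine-rich repeat membrane protein of growing axons, read 10.96, 10.76 and 10.90 at P7 and 7.96, 7.93 and 8.09 at P15, a 7.36-fold fall (-2.88 ± 0.12, adjusted p = 9.4e-11), and its P21 arrays lay lower again, at 6.69 to 7.26. Tnnt1, a troponin T of slow muscle, read 9.35, 9.13 and 9.0 and then 6.59, 6.50 and 6.47 (6.24-fold, adjusted p = 3.5e-11). Itga5, the integrin subunit of the fibronectin receptor, read 9.93, 9.62 and 9.57 and then 7.33, 7.29 and 7.37 (5.19-fold, adjusted p = 1.2e-10). Islr2 had been high at P0 too (mean 11.33), while Tnnt1 (5.90) and Itga5 (7.73) had been low there, so the latter 2 passed through a peak at P7. Slc17a8, the vesicular glutamate transporter VGLUT3, which Purkinje cells express briefly in early life, fell from 8.68, 8.48 and 8.41 to 6.53, 6.47 and 6.45 (-2.04 ± 0.07, adjusted p = 3.5e-11). Fscn1, the actin-bundling protein of filopodia, fell from 12.26, 12.12 and 12.18 to 10.20, 10.15 and 9.84 (-2.12 ± 0.13, adjusted p = 6.3e-09). Zmat4 (-2.15), a zinc finger protein, Bahcc1 (-2.08), with a BAH domain, and Arid3c (-1.98), of the ARID family, completed the 12 largest falls together with the 4 cell cycle genes above. In all 12 the P15 arrays lay below the P7 arrays without overlap, a condition of their choice.

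Genes of growth cones and immature neurons fell as a list. Of 29 measured, 21 were lower and 2 higher (1 without P7 replicate 1, 2 or 3 or P15 replicate 1 or 3). All 29 lay above the median signal, where 21.9% of genes were called lower and 17.4% higher. The list's median change was -0.56, and its mean went from 11.38 at P7 to 10.80 at P15 and 10.40 at P21. Marcksl1, an actin-regulating membrane protein, read 10.60, 10.37 and 10.15 at P7 and 9.10, 9.06 and 9.04 at P15 (-1.31 ± 0.15, adjusted p = 1e-05). Tubb2b, a tubulin of migrating and growing neurons, read 12.64, 12.51 and 12.50, then 11.33, 11.28 and 11.12 (-1.30 ± 0.08, adjusted p = 9.8e-09). Dpysl3, a collapsin response mediator, read 11.17, 11.02 and 11.06, then 9.84, 9.86 and 9.73 (-1.28 ± 0.09, adjusted p = 3.4e-08). These 3 fell alike, and Dcx (-1.10), doublecortin, Sox11 (-1.10) and Igfbpl1 (-1.28) were close to them. The exceptions were Stmn4 (0.47), a stathmin, and Nrcam (0.24), a cell adhesion molecule of nodes of Ranvier, which rose. Gap43 fell by 0.56, while Stmn2 (-0.01) and Marcks (-0.15) were not called. Immature granule neurons also express most of these genes.

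Axon guidance genes showed no common direction. Of 48 measured, 10 were lower and 5 higher, shares near those of all genes (13.8% and 10.5%), with a median of -0.04. The 10 became 4 to 5 with either other normalization and without any 1 of P7 replicates 1, 2 and 3 or P15 replicates 1 and 2, and the 5 became 3 without P7 replicate 1, P15 replicate 1 or P15 replicate 3, 9 with medians set to 0 and 10 with array weights. With medians set to 0 more were thus higher (9) than lower (4). Dcc, a netrin receptor, fell from 8.52, 8.48 and 8.37 to 7.69, 7.43 and 7.55 (-0.90 ± 0.11, adjusted p = 1.9e-05). Epha6, an ephrin receptor, rose from 9.21, 9.40 and 9.34 to 9.87, 9.78 and 9.98 (0.56 ± 0.09, adjusted p = 0.00022). Slit2 (-0.61) and Sema3f (-0.51), repulsive ligands, fell. Among growth factors and their receptors 6 of 23 were lower and 4 higher, the 4 becoming 8 with medians set to 0. Ngfr, the p75 neurotrophin receptor, fell from 11.65, 11.61 and 11.59 to 10.28, 10.28 and 10.32 (-1.32 ± 0.07, adjusted p = 7.7e-10) and on to 9.24 to 9.46 at P21, after 10.04 at P0.

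Sodium channel genes and calcium handling genes were called higher more often than lower. Of 11 measured sodium channel genes, all but 1 above the median signal, 6 were higher and 1 lower, against 17.4% and 21.9% of genes above the median signal, and their median was 0.30. Scn4b, the beta 4 subunit linked to resurgent sodium current in Purkinje cells, read 10.16, 10.39 and 10.40 at P7 and 11.01, 10.93 and 11.11 at P15 (0.70 ± 0.11, adjusted p = 0.00016). Scn1a, the alpha subunit Nav1.1, read 10.08, 10.17 and 10.13, then 10.66, 10.49 and 10.64 (0.47 ± 0.09, adjusted p = 0.00083). Fgf14, which binds sodium channels at the axon initial segment, rose by 0.46 ± 0.08 (adjusted p = 0.00062). The early subunit Scn3a went the other way, from 6.0, 6.13 and 6.22 to 5.38, 5.70 and 5.51 (-0.59 ± 0.11, adjusted p = 0.00096), and its P15 signal lay below the lower quartile. Its mean had been 9.59 at P0.

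Calcium channels, pumps and buffers counted 14 higher and 2 lower of 26, with a median of 0.26. The 2 became 1 without P7 replicate 3 or P15 replicate 3. Above the median signal, where 25 of the 26 lay, 17.4% of genes were called higher and 21.9% lower. The sodium-calcium exchangers all rose, Slc8a1 from 8.87, 9.04 and 8.97 to 9.66, 9.51 and 9.73 (0.67 ± 0.13, adjusted p = 0.001), Slc8a2 by 0.58 and Slc8a3 by 0.42. Another probe set of Slc8a1, with a lower mean signal, rose by less (0.27, adjusted p = 0.036). Among pumps, Atp2b3 (0.57) of the plasma membrane and Atp2a3 (0.34) of the endoplasmic reticulum rose, and among channels Cacna1a (0.23), the P/Q-type pore of Purkinje cells, and Cacna1g (0.36), a T-type pore, rose. Cacnb1, an auxiliary subunit, fell from 10.45, 10.41 and 10.39 to 9.62, 9.61 and 9.54 (-0.83 ± 0.08, adjusted p = 6.3e-07). Cacna1b (-0.36), the N-type pore, was the other gene that fell. The list's largest rise, Calb2 (calretinin, 0.88), belongs to granule cells in this tissue and is given with them below.

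Potassium channels counted 10 higher and 4 lower of 24, with a median of 0.16. Of genes above the median signal, as 23 of these were, 17.4% were called higher and 21.9% lower. The 10 became 5 without P7 replicate 1 and 6 without P7 replicate 2, P7 replicate 3 or P15 replicate 3. The 4 became 2 with medians set to 0 and without any of these 4 arrays. The shaker-type subunits Kcna1 (11.65, 11.68 and 11.70 at P7, then 12.12, 12.13 and 12.15; 0.46 ± 0.07, adjusted p = 0.00024) and Kcna6 (0.43) rose. The M-current subunits Kcnq5 (-0.64 ± 0.11, adjusted p = 0.00027) and Kcnq3 (-0.56 ± 0.09, adjusted p = 0.00024) fell together. Kcnma1 (0.37), the large-conductance calcium-activated channel, and Kcnc1 (0.32), a fast channel of the Kv3 family, rose by less. In metabotropic and IP3 signalling, the pathway that lies below parallel fibre input, 3 of 18 were higher and 1 lower. All 18 lay above the median signal, and neither count exceeded the share of such genes called. Stim1, which senses calcium in the endoplasmic reticulum, rose from 10.16, 10.23 and 10.30 to 10.74, 10.74 and 10.65 (0.48 ± 0.08, adjusted p = 0.00021). Gna11, a G protein alpha subunit, fell from 11.95, 11.91 and 11.92 to 11.52, 11.53 and 11.29 (-0.48 ± 0.07, adjusted p = 0.00017). Its partner in the pathway, Gnaq, changed by 0.15 and was not called. The count of 3 higher was 9 with medians set to 0 and 9 with array weights, and it was 1 without P7 replicate 1 or P7 replicate 3.

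Ionotropic glutamate receptors divided by subunit. Of 25 measured, all above the median signal, 10 were higher and 6 lower, against 17.4% and 21.9% of such genes. Their median was 0.04. All 4 AMPA receptor subunits rose, Gria1 and Gria2 by 0.31 each, Gria3 by 0.56 and Gria4, prominent in Bergmann glia and granule cells, by 0.60. Among NMDA receptor subunits, the mature forms Grin2a (0.63) and Grin2c (0.50) rose. Grin2d, an early form, fell from 9.03, 8.97 and 9.05 to 7.73, 7.66 and 7.86 (-1.26 ± 0.09, adjusted p = 3.4e-08), and Grin2b (0.04) was not called. Grid1, the delta 1 receptor, fell from 9.47, 9.48 and 9.42 to 8.66, 8.60 and 8.44 (-0.89 ± 0.10, adjusted p = 5.8e-06) and stood at 9.06 to 9.49 again at P21. The auxiliary subunits of AMPA receptors were split as well: Cacng4 fell from 10.44, 10.33 and 10.37 to 9.36, 9.47 and 9.29 (-1.0 ± 0.07, adjusted p = 4.5e-08) and Cacng5 fell by 0.92, while Cacng7 (0.39) and Shisa6 (0.28) rose and Cacng2 (-0.00) was not called.

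Receptors for GABA and glycine and chloride transporters counted 8 higher and 2 lower of 19, with a median of 0.26. Of genes above the median signal, as 16 of these were, 17.4% were called higher and 21.9% lower. The 8 became 12 with medians set to 0 or array weights, and the 2 became 1 with either other normalization and without any 1 of the 6 arrays. Gabra6, the alpha 6 subunit of mature granule cells, read 10.56, 10.83 and 10.80 at P7 and 11.57, 11.52 and 11.60 at P15 (0.84 ± 0.09, adjusted p = 7.6e-06). Gabra3, an early alpha subunit, fell from 10.17, 10.16 and 10.15 to 9.56, 9.46 and 9.81 (-0.55 ± 0.09, adjusted p = 0.00023), after 12.65 at P0. Gabra4 (0.49) rose. The chloride exporter Slc12a5 (KCC2, 0.26) and the importer Slc12a2 (NKCC1, 8.81, 8.93 and 8.87, then 9.23, 9.23 and 9.32; 0.39 ± 0.09, adjusted p = 0.0032) both rose.

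Synapse organisers counted 11 higher and 4 lower of 32, with a median of 0.10. Of genes above the median signal, as 30 of these were, 17.4% were called higher and 21.9% lower. The 11 became 7 without P7 replicate 1 or P15 replicate 3, and the 4 became 7 with array weights or with only the arrays of P7 and P15. Il1rapl1, a trans-synaptic adhesion protein, rose from 7.43, 7.59 and 7.65 to 8.39, 8.15 and 8.58 (0.81 ± 0.12, adjusted p = 0.00014). Lrrtm3, a neurexin ligand, rose from 10.29, 10.42 and 10.44 to 11.07, 11.01 and 11.18 (0.70 ± 0.08, adjusted p = 1.1e-05). The arrays of the ages did not overlap in either gene. Cbln1, the granule cell ligand that bridges neurexin and the delta 2 receptor of Purkinje cells, rose by 0.46, and its granule cell partner Cbln3 by 0.65. C1ql1, the climbing fibre ligand, fell from 9.16, 9.13 and 9.13 to 8.65, 8.58 and 8.45 (-0.58 ± 0.11, adjusted p = 0.00093). C1ql1 is also on the list of oligodendrocyte precursors, and which cells its RNA came from was not tested. Genes of vesicle release had no common direction, with 5 higher and 7 lower of 30 and a median of -0.00. The 5 became 10 with medians set to 0 and 10 with array weights, and the 7 became 4 without P15 replicate 3. Cplx2, a complexin, fell from 10.30, 10.25 and 10.34 to 9.23, 9.15 and 9.23 (-1.09 ± 0.07, adjusted p = 5.6e-09), and Stx1a, a syntaxin of the fusion machinery, fell by 0.90. Pclo, the active zone scaffold piccolo, rose from 9.26, 9.42 and 9.43 to 10.10, 10.02 and 10.30 (0.77 ± 0.13, adjusted p = 0.00045).

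**Figure D3:**
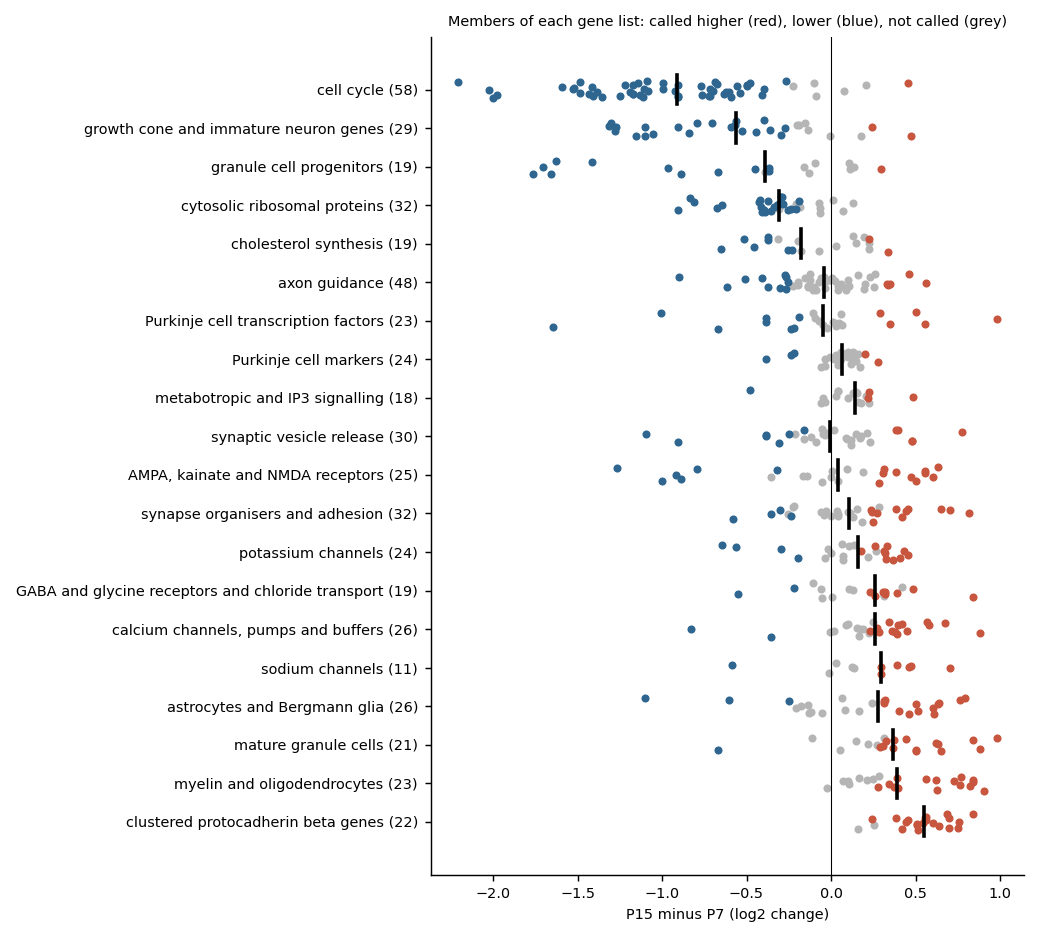
Log2 change from P7 to P15 (horizontal axis) of each measured member of 20 gene lists, with the number of members in brackets, black bars for the list medians and vertical scatter without meaning. Called rises are red, called falls blue and genes not called grey. The cell cycle list lies furthest to the left (median -0.91), Purkinje cell markers lie around 0 (0.06), and the protocadherin list, chosen after its values were seen, lies furthest to the right (0.55).

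Most markers of mature granule cells and of myelin were called higher in the same week, as were 13 of 26 genes of astrocytes and Bergmann glia. Of 21 measured granule cell markers 14 were higher and 1 (Fgf5, -0.67) lower, with a median of 0.37. Their mean signal was 9.94 to 10.06 on the P7 arrays and 10.37 to 10.43 on the P15 arrays. All but 1 (20 of 21) lay above the median signal, where 17.4% of genes were called higher and 21.9% lower. Calb2, calretinin, read 10.67, 10.91 and 10.85 at P7 and 11.70, 11.72 and 11.65 at P15 (0.88 ± 0.10, adjusted p = 9.1e-06). Chn2 (0.62), Fat2 (0.63) and Slc17a7 (VGLUT1, 0.44) rose as well, and Reln (0.06) and Snap25 (0.15) were not called. The granule cell marker Gabra6 stood at a mean of 10.73 at P7. No gene of the list lay below the lower quartile at both ages, which does not show that each was present at both. Rises in receptor and channel genes that granule cells also express, among them Gabra6, Grin2c, Kcnk9 and Calb2, occurred beside this rise of the granule cell list. The part of the capture's background in them was not tested.

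Of 23 measured genes of myelin and oligodendrocytes 15 were called higher and 0 lower, also 0 lower at an unadjusted limma p under 0.05. Their median was 0.39. Most (20) lay above the median signal, where 17.4% of genes were called higher and 21.9% lower. The list's mean signal was 9.30 to 9.47 on the P7 arrays and 9.82 to 9.89 on the P15 arrays, after 7.90 at P0. At P21 it was 10.07 to 10.29. Mobp, a structural protein of compact myelin, read 9.95, 10.17 and 10.13 at P7 and 10.91, 10.88 and 10.98 at P15 (0.84 ± 0.10, adjusted p = 1.7e-05). Ermn, a cytoskeletal protein of oligodendrocytes, read 7.69, 7.94 and 8.05, then 8.86, 8.54 and 8.99 (0.90 ± 0.13, adjusted p = 9.4e-05). Opalin (0.84) and Mog (0.82), membrane proteins of late oligodendrocytes, rose like them. Precursor genes did not move as a list. Of 14 measured, 3 were higher and 3 lower, near the 17.4% and 21.9% of genes above the median signal, where 10 of them lay. The largest fall on the list was that of C1ql1 (-0.58), which is also given with the synapse organisers. Pdgfra, the growth factor receptor of precursors, fell from 8.31, 8.38 and 8.40 to 7.93, 7.78 and 7.97 (-0.47 ± 0.09, adjusted p = 0.00078), and Tnr (0.70) and Ptprz1 (0.69), which also belong to the matrix of synapses and glia, rose.

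Astrocyte and Bergmann glia genes counted 13 higher and 3 lower of 26, with a median of 0.28. Their mean signal was 9.74 to 9.84 at P7 and 9.94 to 10.02 at P15. All 26 lay above the median signal, where 17.4% of genes were called higher and 21.9% lower. Gdf10, a ligand of the TGF-beta family in Bergmann glia, read 9.87, 9.80 and 9.88 at P7 and 10.67, 10.58 and 10.68 at P15 (0.79 ± 0.09, adjusted p = 7.4e-06), and returned to 9.86 to 9.98 at P21. Gjb6, connexin 30, read 7.66, 7.81 and 7.75, then 8.45, 8.47 and 8.58 (0.76 ± 0.09, adjusted p = 1.6e-05). Slc1a2 (0.63) and Slc1a3 (0.50), the glial glutamate transporters, rose. Aldh1l1, an enzyme of folate metabolism in astrocytes, went the other way, from 9.48, 9.39 and 9.37 to 8.51, 8.31 and 8.12 (-1.10 ± 0.09, adjusted p = 9.1e-08). Gfap (-0.60) and Fabp7 (-0.25) fell too, 2 to 5 genes being lower over the alternatives, so the list did not move as a block.

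Interneurons, microglia, vessels, meninges and blood were covered by lists of their own, beside 10.5% of all genes called higher and 13.8% lower. Of 19 interneuron genes 6 were higher and 2 lower, the 6 becoming 3 without P7 replicate 1 or P15 replicate 3 and the 2 ranging from 0 to 3 over the alternatives. Cck (0.50), a neuropeptide gene, and Grm2 (0.46), the glutamate receptor of Golgi cells, were among them. Of 19 microglia genes, none of which lay above the median signal, 5 were lower and 0 higher (0 also at an unadjusted limma p under 0.05), and the 5 became 3 with medians set to 0 and without any 1 of the P7 arrays or P15 replicate 1. Laptm5, a lysosomal protein of immune cells, fell from 7.27, 7.27 and 7.34 to 6.81, 6.95 and 6.73 (-0.46 ± 0.07, adjusted p = 0.00013). Of 23 endothelial and mural genes 1 was higher and 2 lower, and of 20 meningeal and choroid plexus genes 1 was higher and 3 lower, and over the alternatives these counts were 0 to 2, 1 to 6, 0 to 3 and 1 to 5. Islr, a matrix protein of mesenchymal cells, fell from 8.44, 8.39 and 8.38 to 7.68, 7.46 and 7.65 (-0.81 ± 0.11, adjusted p = 3.5e-05). Only 2 genes of red blood cells were measured, and Slc4a1, the anion exchanger of their membrane, was not called (-0.15). Alas2, of haem synthesis, fell from 7.35, 7.38 and 7.38 to 6.43, 6.42 and 6.58 (-0.90 ± 0.11, adjusted p = 2.5e-05) and stood at 7.67 to 8.22 at P21.

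Among single genes the largest rises were smaller than the largest falls. Mir670hg, a noncoding host transcript of a microRNA, read 7.03, 7.04 and 7.04 at P7 and 8.36, 8.24 and 8.60 at P15, a 2.57-fold rise (1.36 ± 0.12, adjusted p = 3.5e-07). Fam107a, an actin-associated protein, read 10.01, 10.38 and 10.40, then 11.53, 11.49 and 11.62 (1.28 ± 0.09, adjusted p = 2.8e-08). Sdc2, the heparan sulphate proteoglycan syndecan 2, read 8.97, 9.09 and 8.96, then 10.20, 10.02 and 10.16 (1.12 ± 0.10, adjusted p = 5.6e-07). P15 and P7 were separated without overlap in each, as the choice of these genes required. Lin7a, a scaffold of synaptic membranes, rose from 10.42, 10.59 and 10.56 to 11.57, 11.50 and 11.69 (1.07 ± 0.09, adjusted p = 3.2e-07). Mertk, a receptor kinase for engulfing cell debris, rose from 6.91, 6.90 and 6.80 to 7.86, 7.79 and 7.92 (0.98 ± 0.09, adjusted p = 4.7e-07). Zfp931 (1.06), Mgarp (1.05), a mitochondrial protein, and Spa17 (1.02) also rose by at least 1, and Ly96, Cox7a1 and Cstad are described with the genes that peaked at P15. Sdc2 was at 7.48 at P56, below all its P7 arrays, so its high level was passing.

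**Figure D4:**
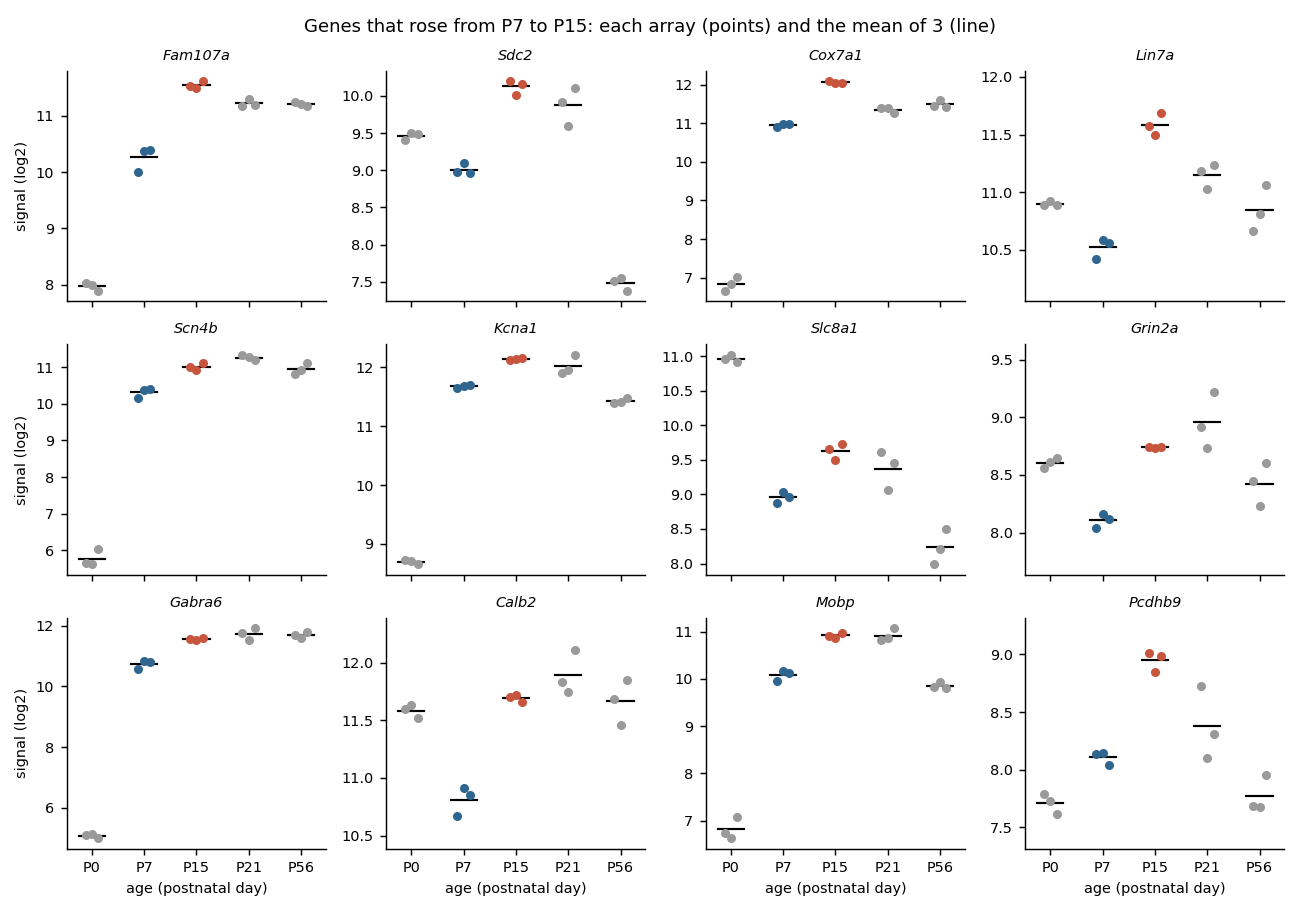
Log2 signal (vertical axes, which differ in range and do not start at 0) of 12 genes that rose from P7 (blue) to P15 (red), with P0, P21 and P56 in grey, against age in postnatal days in equal steps. Points are arrays and lines are means of 3. Scn4b and Gabra6 were near their later level by P15, while Sdc2, Lin7a and Pcdhb9 had their highest mean at P15.

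Genes of cytosolic ribosomal proteins fell as a list by a small amount. Of 32 measured, 23 were lower and 0 higher (0 also at an unadjusted limma p under 0.05), and the median was -0.31. Over the alternatives 17 to 24 were lower. Most (29) lay above the median signal, where 21.9% of genes were called lower and 17.4% higher. The list's mean was 11.10 to 11.19 on the P7 arrays and 10.70 to 10.87 on the P15 arrays. Rps4x, of the small subunit, read 12.09, 12.01 and 11.94 at P7 and 11.31, 11.26 and 10.75 at P15 (-0.91 ± 0.11, adjusted p = 1.7e-05). Rps3 read 11.43, 11.44 and 11.34, then 10.68, 10.75 and 10.29 (-0.83 ± 0.10, adjusted p = 1.5e-05). In both, P15 replicate 3 was the lowest array. Rps19 (-0.81) and Rpsa (-0.67) fell as well, and Rpl34 (0.01), Rpl38 (0.07) and Rps29 (-0.07) were not called. Many of these genes have pseudogenes of near-identical sequence that a short probe can read.

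Oxidative phosphorylation genes showed no common direction, with 11 higher and 5 lower of 55 and a median of 0.02. All 55 lay above the median signal, where 17.4% of genes were called higher and 21.9% lower. The 11 became 21 with medians set to 0 and 7 without P7 replicate 2, and the 5 became 13 with a trended prior, so neither count is firm. Ndufs5, an accessory subunit of complex I, rose from 10.18, 10.11 and 10.05 to 10.94, 10.94 and 10.95 (0.83 ± 0.08, adjusted p = 7.7e-07), and Cox17, a copper chaperone of complex IV, rose by 0.70. Both were higher again at P56, with means of 12.22 and 12.09. Cholesterol synthesis counted 7 lower and 2 higher of 19, the 7 becoming 4 without P7 replicate 3 and the 2 ranging from 0 to 6 over the alternatives. Pmvk, phosphomevalonate kinase, fell by 0.65 ± 0.11 (adjusted p = 0.00029), and Hmgcs1, which feeds the pathway, fell from 10.96, 11.01 and 10.97 to 10.65, 10.62 and 10.55 (-0.38 ± 0.08, adjusted p = 0.0017) and was at 10.96 to 11.28 at P21.

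Chromatin genes changed one by one. Of 22 genes of DNA methylation 4 were lower and 2 higher, the 4 becoming 7 with array weights or with only the arrays of P7 and P15 and the 2 becoming 1 without P7 replicate 1, 2 or 3 or P15 replicate 1 or 3. Dnmt3a, a methyltransferase of postmitotic neurons, fell from 10.18, 10.11 and 10.12 to 9.5, 9.54 and 9.57 (-0.60 ± 0.09, adjusted p = 8.8e-05). Uhrf1 (-1.17), which maintains methylation in dividing cells and is also on the cell cycle list, fell most. Of 25 Polycomb and H3K27 genes 5 were lower and 4 higher, and the 4 became 2 without P7 replicate 1 or P15 replicate 3. Of genes above the median signal, as 24 of these and 19 of the DNA methylation genes were, 21.9% were called lower and 17.4% higher. Kdm6b, which removes methyl groups from H3K27, fell from 10.81, 10.69 and 10.67 to 9.88, 9.80 and 10.01 (-0.82 ± 0.11, adjusted p = 4e-05), and Ezh2, which adds them, fell by 0.62 ± 0.10 (adjusted p = 0.00019). Kdm6a (0.03) was not called.

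The remaining lists had few calls or calls in both directions. For comparison, 10.5% of all genes were called higher and 13.8% lower, and 17.4% and 21.9% of those above the median signal. Thyroid hormone receptors and targets counted 6 higher and 6 lower of 21, the 6 higher becoming 3 without P7 replicate 1. Dio2, which activates the hormone, rose from 6.94, 7.02 and 6.92 to 7.60, 7.51 and 7.51 (0.58 ± 0.09, adjusted p = 0.00021), and Rxrg, a partner of the receptors, fell from 7.51, 7.56 and 7.51 to 6.28, 6.14 and 6.25 (-1.31 ± 0.10, adjusted p = 1.4e-07). Of 26 activity-regulated genes 2 were higher and 3 lower, the 2 becoming 4 with quantile normalization or medians set to 0 and 1 without P7 replicate 1 or P15 replicate 3. Egr1 rose by 0.54 ± 0.07 (adjusted p = 2.5e-05), while Fos (0.05), Arc (0.08) and Npas4 (-0.08) were not called. Genes of the perineuronal and extracellular matrix counted 7 higher and 6 lower of 25. Hapln1, a link protein of perineuronal nets, rose from 6.40, 6.65 and 6.62 to 7.30, 7.27 and 7.31 (0.74 ± 0.11, adjusted p = 8.6e-05), and Tnc, tenascin C of immature matrix, fell from 8.84, 8.65 and 8.62 to 7.82, 7.77 and 7.77 (-0.92 ± 0.12, adjusted p = 4.9e-05). Of 23 collagen genes 1 rose, Col18a1 (0.44), and 0 fell (0 also at an unadjusted limma p under 0.05).

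P15 was also set beside both P7 and P21, and some genes peaked or dipped there. In a principal component analysis of the 9 arrays, the axis with 52% of the variance ordered the ages. The next, with 24.9%, set P15 (-16.0 to -22.4) apart from P7 and P21 (4.89 to 17.7). Genes that only rise or only fall, at different times, can also give such an axis. It therefore does not show that P15 levels lay outside those of P7 and P21. Measured against the mean of P7 and P21, 151 probe sets (0.684%) were higher and 354 (1.6%) lower at P15 by at least 0.5. This is a distance from the midpoint, which genes whose P15 level lies between P7 and P21 can also reach. How many lay outside both ages was not counted. The 151 became 240 without P15 replicate 2 and 248 with medians set to 0. The P7 arrays serve in this contrast and in P15 against P7, so the contrasts share them. Cox7a1, a subunit of complex IV, read 10.91, 10.97 and 10.98 at P7, 12.09, 12.05 and 12.05 at P15 and 11.40, 11.39 and 11.27 at P21, a difference of 0.91 ± 0.07 from the mean of its neighbours (adjusted p = 8.1e-07). Malat1, a nuclear noncoding RNA, read 10.29, 10.20 and 10.05, then 11.16, 11.07 and 11.12, then 9.81, 9.52 and 10.72 (1.02 ± 0.19, adjusted p = 0.0012). Its P21 arrays spread more than the difference between P7 and P15. Ly96, a coreceptor of innate immunity, and Cstad, each 0.89 above the mean of their neighbours, completed the highest 4. Separation of the P15 arrays from all P7 and P21 arrays was a condition of this choice.

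The 4 deepest troughs at P15, chosen under the same condition, were Egln3, Rasgrp2, Camkv and Fscn1. Egln3, an oxygen-sensing prolyl hydroxylase, read 8.95, 9.04 and 8.88 at P7, 7.22, 6.93 and 7.49 at P15 and 8.20, 8.17 and 8.92 at P21 (-1.48 ± 0.14, adjusted p = 4.7e-06). Rasgrp2, an exchange factor for Rap proteins, read 9.16, 8.92 and 8.86, then 7.10, 7.12 and 7.01, then 7.95, 7.93 and 8.28 (-1.44 ± 0.09, adjusted p = 1.6e-07). Camkv, a kinase-like protein of synapses, read 8.60, 8.67 and 8.64, then 7.55, 7.45 and 7.19, then 8.74, 8.82 and 9.06 (-1.36 ± 0.09, adjusted p = 2e-07). All 3 were low again at P56, with means of 6.81, 6.89 and 6.68, so P21 stood above both its neighbours. The labels name neither scan dates nor batches, so an effect of a batch that follows age cannot be told apart from age.

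**Figure D5:**
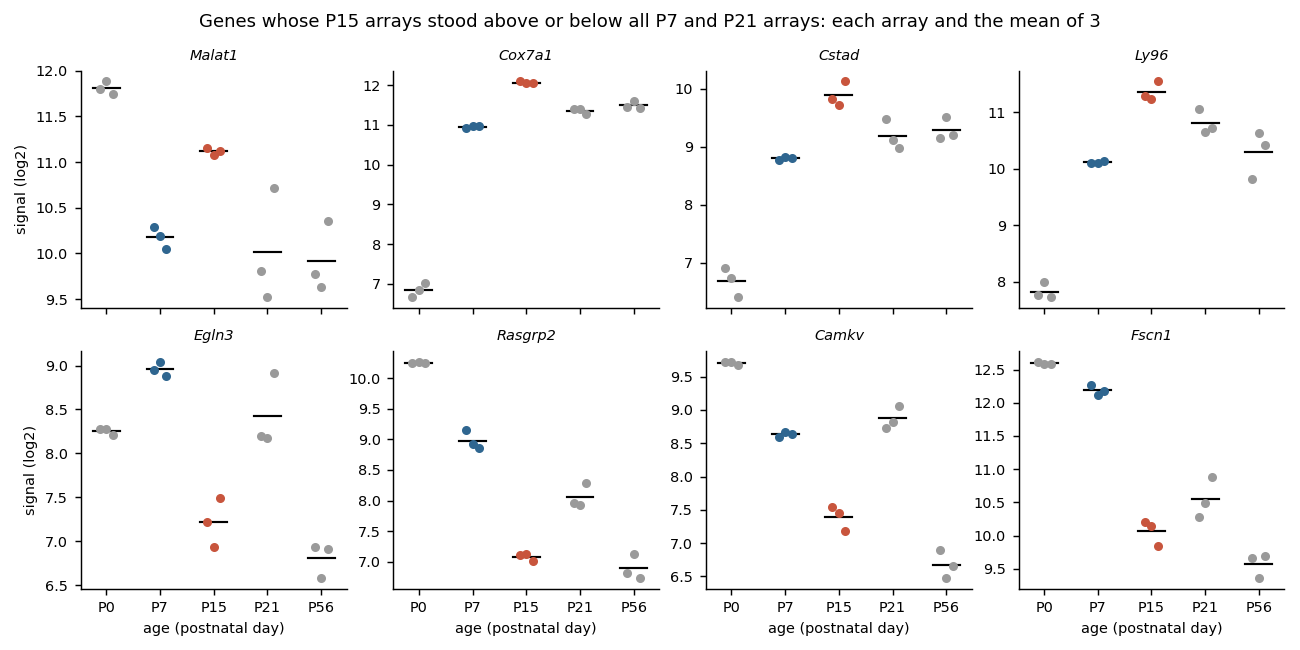
Log2 signal (vertical axes, which differ in range and do not start at 0) of the 4 genes furthest above (top row) and the 4 furthest below (bottom row) the mean of P7 and P21 at P15, against age in postnatal days in equal steps. Points are arrays and lines are means of 3, with P7 in blue, P15 in red and other ages in grey. Every P15 point of Camkv (7.19 to 7.55) lies below every P7 and P21 point (8.60 or more). Such separation was a condition of the choice of these genes.

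Of 339 measured small RNA genes 17 were called higher and 1 lower, against 10.5% and 13.8% of all genes called. Snora52, a guide RNA for pseudouridylation, rose from 9.30, 9.37 and 9.24 to 10.11, 10.12 and 10.22 (0.85 ± 0.09, adjusted p = 2.5e-06). Scarna17, a guide RNA of Cajal bodies, fell from 10.01, 9.95 and 9.99 to 8.98, 9.03 and 9.0 (-0.98 ± 0.12, adjusted p = 1.8e-05). The array was not made to tell a small RNA from the longer transcript it is cut from, and Mir186 (0.64) lay below the lower quartile at both ages.

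RNAs tied to sex were read as a check of the pools. Xist, the noncoding RNA of the inactive X, read 6.56, 6.47 and 6.61 at P7 and 6.37, 6.14 and 6.14 at P15 (-0.33 ± 0.11, adjusted p = 0.033), after a mean of 11.89 at P0. The Y-linked Eif2s3y read 8.86, 8.88 and 8.78, then 9.44, 9.26 and 9.48 (0.55 ± 0.09, adjusted p = 0.00035). Xist was low and Eif2s3y measured in every P7 and P15 array. The call of Xist was lost with quantile normalization (adjusted p = 0.079) and with medians set to 0 (0.081). The calls of Xist, Uty (0.33) and Kdm5d (0.27) were also lost without single arrays: without P15 replicate 3 the adjusted p was 0.13, 0.16 and 0.076, and without P7 replicate 3 it was 0.12, 0.070 and 0.061. The sex of the pooled mice is not in the labels, and its part in the comparison was not tested.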

How the data were processed

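The authors deposited 1 table of log2 signals per probe set for the 15 arrays. Per the submitters' processing notes it was made with Affymetrix Power Tools. The sources used here give neither its settings nor its version. The range of the values set the log base at 2. Arrays have no depth, and precision is limited by their number. No column lay outside the samples (0), and no value was changed and no probe set removed before the tests.

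Samples were grouped by the age in their labels. Tests used limma 3.58.1 (R 4.3.3). All 15 arrays entered 1 model with age as its only factor (10 residual and 6.5 prior degrees of freedom), for P15 minus P7 and for P15 minus the mean of P7 and P21. Benjamini-Hochberg adjustment ran over 22092 probe sets. SE is the standard error of the fit. The fit for P15 against P7 was tested on simulated data in which 21892 of 22092 probe sets were unchanged and 50 were changed at each size. It called 24% of changes of 0.25, 66% of 0.5 and 98% of 1. In the data themselves 24% of all probe sets were called, so the adjustment differs and these shares need not hold there.

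The annotation table (2016) gave 1 symbol to 20996 probe sets, several to 91 and none to 1005 that it lacks. A lookup of 20959 by Entrez number changed 0. The probe set with the highest mean stood for its gene. Older histone symbols were matched through RefSeq synonyms. Whether replicates were separate pools is not stated, so the spread between them may be technical.

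The comparison, the lists and the rules were chosen with earlier results of these data known. Named by rule were the 12 largest called rises and falls among named protein or long RNA genes with a signal above the median and no overlap of arrays, up to 3 small RNAs a direction, up to 4 called members with the largest change of each list, all Purkinje cell markers, Rpl10a, the sex-linked RNAs, and the 4 genes furthest above and below P7 and P21. The genes furthest above and below P7 and P21 had to be called in the contrast with their mean and lie above the median signal. Their P15 arrays also had to lie outside all P7 and P21 arrays. Other list members are named after their values were seen. Alternatives were other normalizations, array weights, other fits and filters, and leaving out each array.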

Additional observations from a re-analysis of the deposited data

How the results depend on the processing

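Of 155 called named genes, 137 kept the call under every alternative that held them and 18 lost it under at least 1. The setting without the dimmest 50% of probe sets did not hold all 174 named genes, so some could not lose the call there. The 2296 probe sets higher at P15 became 3583 with array medians set to 0 and 3551 with array weights. Leaving out 1 array at a time gave 1524 to 2002 higher (1524 without P7 replicate 1) and 2304 to 2621 lower, 12 to 23 higher and 146 to 174 lower by at least 1, and 121 to 155 list genes higher and 186 to 201 lower. Against the mean of P7 and P21 it gave 111 to 240 higher (240 without P15 replicate 2) and 311 to 465 lower. These counts were 248 higher with medians set to 0, 97 higher with the dimmest 50% of probe sets left out, and 1648 higher and 2566 lower with no minimum difference (0). Those of changes of at least 1 were 9 and 83 with the dimmest 50% left out and 487 and 880 with a minimum of 0.5. Purkinje cell markers that were not called turned sign near 0. Quantile normalization gave Pcp2 -0.0096, Pcp4 -0.023, Homer3 -0.022, Dner -0.055, Inpp5a -0.033 and Slc32a1 0.00082. Medians set to 0 gave Slc1a6 0.032, Plcb4 0.031, Itpka 0.011 and Slc32a1 0.063, and array weights gave Slc32a1 0.011. Leaving out 1 array at a time gave -0.071 to 0.014 for Slc1a6, -0.0074 to 0.046 for Dner, -0.095 to 0.0077 for Itpka and -0.021 to 0.022 for Slc32a1. With the replicate block the counts were 2281 higher and 2954 lower, 16 and 162 by at least 1, 151 and 354 against P7 and P21, and 172 and 213 list genes. It ended the call of Skor2 (adjusted p = 0.066) and of no other named gene. The numbers were not taken to pair the samples, since same-numbered arrays of P7 and P15 correlated at 0.049, -0.079 and -0.0062 in their deviations. The cause of these shifts was not tested. Signals below the lower quartile and near the top of the range limit what small changes can be read.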

Other observations

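Clustered protocadherin beta genes, which code for neuronal adhesion proteins used in self-recognition of dendrites and axons, rose together; the family was chosen after its values were seen. Of 22 measured, 20 were called higher and 0 lower (0 also at an unadjusted limma p under 0.05), against 10.5% and 13.8% of all genes, with a median change of 0.55. Their mean signal was 7.61 to 7.66 on the P7 arrays, 8.07 to 8.23 on the P15 arrays and 7.78 to 7.99 on the P21 arrays, so the level at P15 was the highest of these 3 ages. Pcdhb9 read 8.95 on average at P15 (change 0.84), Pcdhb15 rose by 0.76 and Pcdhb18 by 0.75, while Pcdhb1 (0.16) and Pcdhb7 (0.25) were not called. The genes are similar in sequence, so a probe may read several, which was not checked, and the 22 values are not taken as independent. Leaving out single arrays and the other settings on all genes gave 16 to 22 higher.

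Lysine demethylases of the Kdm family and genes of the proteasome, also chosen after their values were seen, were called lower more often than higher. Of 18 Kdm genes, 16 of them above the median signal, where 21.9% of genes were called lower, 10 were lower and 1 higher, with a median of -0.28, and over the alternatives 8 to 10 were lower and 0 to 2 higher. Kdm4b (-0.49), which acts on H3K9, and Kdm3b (-0.39) fell beside Kdm6b (-0.82), and the Y-linked Kdm5d (0.27) was the 1 that rose. Of 47 proteasome genes 14 were lower and 1 (Psmg2, an assembly chaperone, 0.34) higher, with a median of -0.13; 43 of them lay above the median signal, with the same background. With medians set to 0 the counts were 11 lower and 5 higher, with a median of -0.057. Psme1, of the 11S activator, fell by 0.99, and Psmb4 (-0.72) and Psmc2 (-0.56), of the core and of the 19S base, followed.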
